A study of Mus musculus with 10 samples.

Results

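The nuclear-coded subunits of mitochondrial complex I were followed in mRNA-seq libraries of visceral white adipose tissue (WAT) from mice carrying 1 or both functional copies of Mof. Members were all genes whose symbol is Nduf followed by a, ab, b, c, s or v and a number, so that the assembly factors (Ndufaf genes) were not members. By this rule 37 of the 47937 genes listed in every library were members. Of these, 7 form the catalytic core, 9 are accessory subunits of the matrix arm, 9 of the proximal membrane arm and 11 of the distal membrane arm, and the remaining member is Ndufa4. The symbol Ndufb1, which belongs to the distal membrane arm, was not matched in the files used here.

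The libraries came from C57BL/6 mice in 4 groups. On a standard diet (SD) there were 3 Mof+/+ and 3 Mof+/- libraries from mice aged 8 weeks, and on a high-fat diet (HFD) there were 2 Mof+/+ and 2 Mof+/- libraries, labelled as 27 weeks old after 20 weeks of HFD. The HFD-fed mice were therefore older than the SD-fed mice by their labels, and diet and age cannot be told apart; the study's methods give other ages for these mice. Mof+/- mice carry a germline loss of 1 copy of Mof (Kat8), the lysine acetyltransferase that acetylates histone H4 at lysine 16, in all tissues and not only in fat, while Mof+/+ mice are wild type. Nothing in the labels says that libraries of a group came from separate mice, so p-values measure only the spread between libraries. For the third SD libraries the headings inside the files give the opposite genotypes, whereas groups here follow the sample labels.

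Complex I (NADH:ubiquinone oxidoreductase) is the entry point of electrons from NADH into the respiratory chain. Its matrix arm oxidizes NADH and passes the electrons through a flavin and a row of iron-sulfur clusters to ubiquinone, and its membrane arm uses the energy released to pump protons. Part of the membrane arm is coded by mitochondrial DNA, whereas all other subunits are coded in the nucleus and imported, and many of these are accessory subunits with short transcripts that surround the catalytic core. White adipocytes use respiration for lipid turnover and for supplying lipogenesis, and brown adipocytes and muscle fibres are far richer in mitochondria.

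The libraries were unequal in depth and composition. Total counts on genes ranged from 7301119 to 7829250 in SD Mof+/+, from 6724618 to 17171947 in SD Mof+/- and from 15483115 to 16014992 in HFD Mof+/+, and were 1044355 and 5531786 in HFD Mof+/-. Even so, the lowest count of any member in any library was 73, and all 37 members passed the filter on low counts in every comparison. Kat8 was at 20.4 to 21.5 CPM (counts scaled to the same total on genes in every library) in SD Mof+/+, at 11.5 to 18.8 CPM in SD Mof+/-, at 18.1 and 19.2 CPM in HFD Mof+/+, and at 20.1 and 10.5 CPM in HFD Mof+/-, so that the first HFD Mof+/- library was not below the HFD Mof+/+ libraries. All 9 white adipocyte markers were above 10 CPM in all 10 libraries. Of 16 skeletal muscle markers, all 16 reached 10 CPM in the first HFD Mof+/- library, where they made up 7.62% of all counts, and 15 did in the second, where they made up 0.185%. In the other 8 libraries 0 to 3 of them reached 10 CPM and they made up at most 0.0101% of counts. Ucp1, which defines brown fat, was at 81.4 and 3.62 CPM in the HFD Mof+/- libraries and at most 0.904 CPM elsewhere. Xist was counted in the SD Mof+/- libraries (46.1 to 139 CPM) and was at 0 in all others. In contrast, 4 Y-linked genes were at 0 in the SD Mof+/- libraries and summed to 194 to 225 CPM in SD Mof+/+. On HFD they summed to 153 and 134 CPM in Mof+/+ and to 77.6 and 104 CPM in Mof+/-. Sex and genotype therefore cannot be told apart on SD, nor can sex and diet in Mof+/-. By these genes the third SD libraries resembled the groups of their labels rather than those of their column headings.

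Complex I transcripts took the smallest share of counts in SD Mof+/+ and the largest in Mof+/- libraries. The 37 members summed to 4025, 4436 and 4484 CPM in SD Mof+/+, and to 6299, 6754 and 11057 CPM in SD Mof+/-. After HFD the sums were 4869 and 5508 CPM in Mof+/+ and 9580 and 10029 CPM in Mof+/-. On both diets every Mof+/- library was above every Mof+/+ library. The third SD Mof+/- library stood apart from the other 2 of its group. Fewer cells of a type and less RNA per cell cannot be told apart in such bulk samples.

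Per length of the main transcript (TPM, levels divided by length and scaled to the same total in each library), the levels of the members spanned a wide range within a group. In SD Mof+/+, Ndufb4 was lowest at 52.2 ± 10.5 TPM (mean ± standard deviation, n = 3) and Ndufa4 highest at 896 ± 153 TPM. Ndufs1, a core subunit with the longest main transcript among the members, was at 89.4 ± 4.77 TPM, close to Ndufs4 at 89.3 ± 19.5 TPM and Ndufc1 at 83.5 ± 14.2 TPM, and these neighbours did not differ beyond their spread. After Ndufa4 the next highest levels were those of Ndufa7 (546 ± 19.6 TPM), Ndufb9 (535 ± 47.3 TPM) and Ndufa2 (478 ± 66.8 TPM), whose ranges also met.

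**Figure D1:**
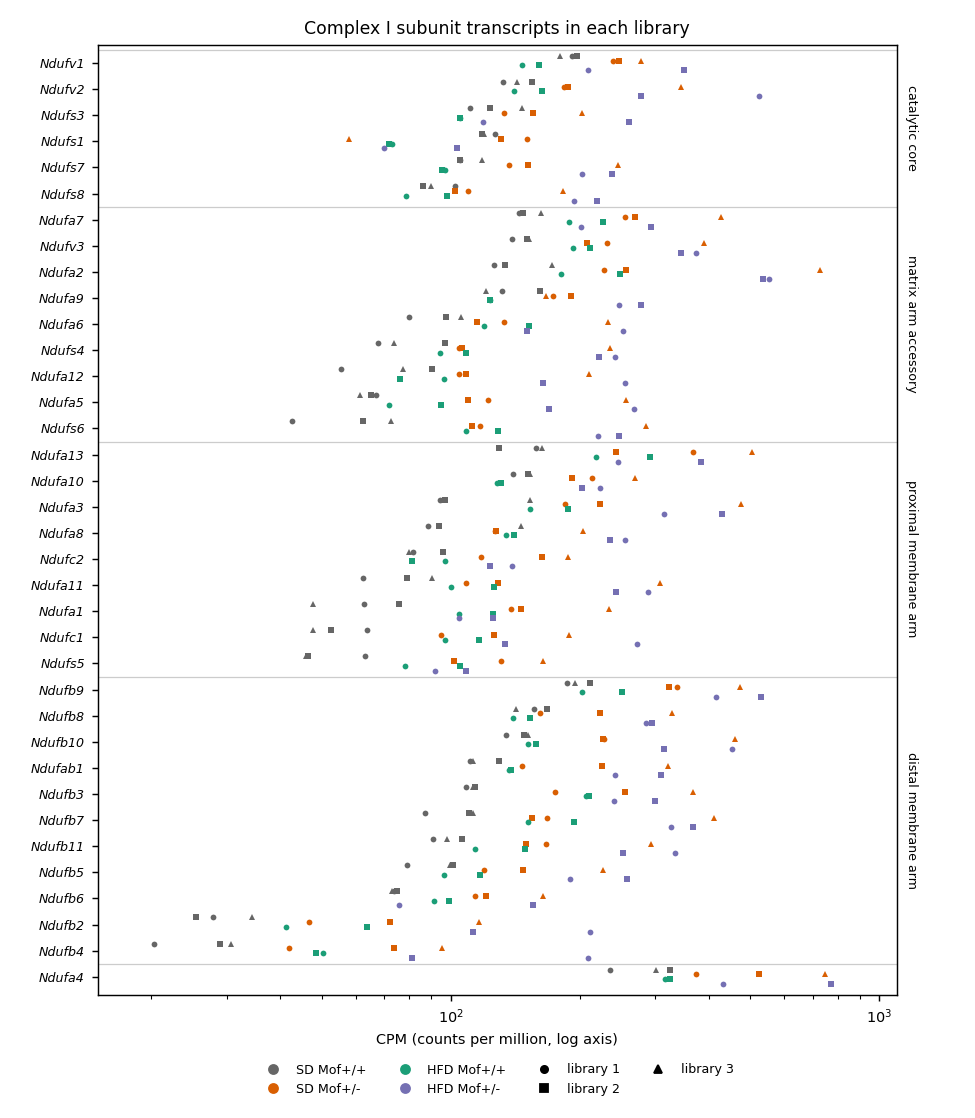
Level of 36 of the 37 members in each of the 10 libraries, in CPM on a log axis, with members ordered by role. Colours are the groups and marker shapes are the libraries within a group, 3 per SD group and 2 per HFD group. For most members the SD Mof+/+ libraries lie farthest left and the Mof+/- libraries of both diets farthest right, and Ndufs1 is the member in which the third SD Mof+/- library is lowest.

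All 37 members had a higher fitted level in Mof+/- on both diets, and their promoters were searched for motifs of factors known to act on respiratory genes, and 1 promoter per motif is printed to show where the letters lie. RefSeq promoter windows (GRCm38.p6, 250 bases before to 50 after the start) were given for 33 members, in 35 windows. Both strands were searched, and a window was counted once per motif, however many matches it held. The ETS motif CCGGAAG, read by GABPA, was in 11.4% of the members' windows and 8.86% of all 32851 windows. The NRF1 motif GCATGCGC was in 8.57% against 2.71%, the YY1 motif AAGATGG in 20.0% against 6.34%, and the ERR motif AAGGTCA in 8.57% against 4.72%. At least 1 of the 4 was in 48.6% of the members' windows and 20.7% of all. The median GC content was 59.0% in the members' windows and 52.7% in all, and no test of these shares was made. Windows are written 5′ to 3′ on the strand of the gene, with the motif in capitals: for Ndufs3 (ETS, on both strands) at chr2:90904672-90904971 (minus strand), for Ndufa11 (NRF1) at chr17:56717512-56717811 (plus strand), for Ndufs6 (YY1) at chr13:73328433-73328732 (minus strand) and for Ndufb2 (ERR) at chr6:39592315-39592614 (plus strand).
Ndufs3: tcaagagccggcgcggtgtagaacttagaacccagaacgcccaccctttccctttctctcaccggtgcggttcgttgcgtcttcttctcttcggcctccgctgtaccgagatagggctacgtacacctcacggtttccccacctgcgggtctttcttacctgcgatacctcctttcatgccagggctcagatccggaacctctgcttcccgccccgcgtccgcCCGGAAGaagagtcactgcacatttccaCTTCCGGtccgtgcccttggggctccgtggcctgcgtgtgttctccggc
Ndufa11: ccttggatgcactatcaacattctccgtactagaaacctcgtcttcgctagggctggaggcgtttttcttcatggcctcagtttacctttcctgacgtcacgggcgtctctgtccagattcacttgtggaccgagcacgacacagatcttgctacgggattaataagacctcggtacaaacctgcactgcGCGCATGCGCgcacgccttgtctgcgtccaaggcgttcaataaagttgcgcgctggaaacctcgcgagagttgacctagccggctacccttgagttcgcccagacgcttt
Ndufs6: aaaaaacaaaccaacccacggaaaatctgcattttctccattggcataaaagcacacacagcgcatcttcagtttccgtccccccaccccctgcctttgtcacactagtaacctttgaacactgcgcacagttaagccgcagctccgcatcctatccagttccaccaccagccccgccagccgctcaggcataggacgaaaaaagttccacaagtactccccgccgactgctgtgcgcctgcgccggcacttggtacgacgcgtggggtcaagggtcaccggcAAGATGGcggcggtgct
Ndufb2: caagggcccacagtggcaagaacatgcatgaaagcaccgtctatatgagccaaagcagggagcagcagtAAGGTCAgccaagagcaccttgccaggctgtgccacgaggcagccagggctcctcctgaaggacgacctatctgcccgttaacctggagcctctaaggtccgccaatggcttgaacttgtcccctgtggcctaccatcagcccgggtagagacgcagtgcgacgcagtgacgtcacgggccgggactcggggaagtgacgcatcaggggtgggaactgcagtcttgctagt
In Ndufs3 the ETS letters occur before and just after the annotated start, and in Ndufs6 the YY1 letters lie downstream of the start. In Ndufa11 the capitals are NRF1 matches on both strands that overlap. Ndufs6 and Ndufb2, the members with the largest log2 fold changes on SD and on HFD, thus hold different motifs. The windows of Ndufa1 and Ndufa7 held none of the 4. These matches are letters in a window and no evidence of binding.

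The comparison of genotypes on SD asked how complex I transcripts differ in young heterozygous mice. All 37 members had a higher fitted level in Mof+/- than in Mof+/+, and 15 of them rose past an adjusted p of 0.05 (edgeR quasi-likelihood test, TMM normalization, Benjamini-Hochberg adjustment over all 13864 genes tested). Over all genes tested, 46.8% had a higher fitted level and 3.33% rose past the same threshold. The median log2 fold change was 1.31 over the members and -0.07 over all genes. At an unadjusted p under 0.05, 36 members were higher, against 14.1% of all genes. In CPM, 31 members had all Mof+/- libraries above all Mof+/+ libraries, as did 9.71% of all genes, and after TMM scaling the count was 36 members, against 18% of all genes.

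By role, none of the 7 core subunits passed the adjusted threshold, although 6 of them had an unadjusted p under 0.05, and their median log2 fold change was 0.79. Of the accessory subunits, 3 of 9 in the matrix arm rose (median 1.31), 5 of 9 in the proximal membrane arm (median 1.69) and 7 of 11 in the distal membrane arm (median 1.43). The difference between core and accessory subunits was not tested, and the core subunits have longer main transcripts, of 758 to 2590 bases against medians of 683 to 875 bases in the accessory arms.

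Within the core, Ndufv1 binds NADH and the flavin. It was at 192, 198 and 179.5 CPM in SD Mof+/+ and at 239.8, 247 and 278 CPM in SD Mof+/-, without overlap, with a log2 fold change of 0.79 ± 0.22 (SE) and an edgeR adjusted p of 0.0711. Ndufv2, its iron-sulfur partner, was at 133, 155 and 143 CPM against 184, 188 and 345 CPM, a log2 fold change of 1.12 ± 0.32 with an edgeR adjusted p of 0.0758. In both genes all heterozygous libraries were higher, and in Ndufv2 the third of them was far above the others. Ndufs1, which carries iron-sulfur clusters (chr1:63143596-63176833, minus strand, GRCm38), was at 127, 119 and 119.6 CPM against 150.4, 131 and 57.8 CPM. Its log2 fold change was 0.23 ± 0.32 with an edgeR adjusted p of 0.689. Ndufs1 thus overlapped between the genotypes, and the library with the highest sum of complex I transcripts had the lowest level of it; as a share of all members' counts it was 2.67% to 3.15% in SD Mof+/+, 1.94% and 2.39% in the first 2 SD Mof+/- libraries and 0.523% in the third.

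Of the other core subunits, Ndufs3, Ndufs7 and Ndufs8 belong to the part of the matrix arm that hands electrons to ubiquinone. Ndufs3 was at 111, 124 and 147 CPM in SD Mof+/+ and at 133, 155 and 202 CPM in SD Mof+/- (log2 fold change 0.74 ± 0.27, edgeR adjusted p of 0.124), and its groups overlapped. Ndufs7, which holds the last iron-sulfur cluster before ubiquinone, was at 105, 105 and 118 CPM against 137, 152 and 246 CPM, without overlap (1.08 ± 0.30, edgeR adjusted p of 0.0668). Ndufs8 was at 102, 86.4 and 89.96 CPM against 109.7, 102 and 182 CPM (0.88 ± 0.30, edgeR adjusted p of 0.114).

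Among the accessory subunits of the matrix arm, the zinc-binding subunit Ndufs6 (chr13:73319838-73328542, minus strand) had the largest log2 fold change of all members. It was at 42.5, 62.6 and 72.7 CPM in SD Mof+/+ and at 117, 112 and 286 CPM in SD Mof+/-, and rose by 1.93 ± 0.44 on the log2 scale, or 3.81-fold (edgeR adjusted p of 0.0454). Ndufa2, a small subunit with a thioredoxin-like fold, was at 126, 134 and 173 CPM against 228, 256 and 726 CPM (1.89 ± 0.48, edgeR adjusted p of 0.0556). Both were separated between the genotypes, and in both the third heterozygous library lay far above the other 2. Ndufa7 was at 145, 147 and 163 CPM against 256, 269 and 427 CPM and rose (1.45 ± 0.29, edgeR adjusted p of 0.0375). Ndufa9, at the junction of the arms, was at 132, 162 and 121 CPM against 173, 191 and 167 CPM (0.71 ± 0.23, edgeR adjusted p of 0.0933). It had the smallest log2 fold change among the accessory subunits, although its groups did not overlap. The third subunit of this arm that rose was Ndufa5, and Ndufa6, Ndufa12, Ndufs4 and Ndufv3 had log2 fold changes of 1.15 to 1.31 that did not pass the threshold.

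In the proximal membrane arm, Ndufa1 is a single-span membrane subunit coded on the X chromosome (chrX:37187588-37191163, minus strand), with the shortest main transcript of the members. It was at 62.7, 75.7 and 47.6 CPM in SD Mof+/+ and at 138, 146 and 234 CPM in SD Mof+/-, and rose by 1.85 ± 0.33 on the log2 scale (edgeR adjusted p of 0.0303). Ndufs5, a disulfide-bonded subunit of the intermembrane space side, was at 63.1, 46.6 and 46.1 CPM against 131, 102 and 164 CPM and had the smallest adjusted p of all members (1.72 ± 0.29, edgeR adjusted p of 0.0281). In these genes all 3 heterozygous libraries were well above the wild-type ones. Ndufa13 (also known as GRIM-19), Ndufc1 and Ndufc2 also rose, by 1.23 to 1.70. Of the exon bases of Ndufa13, 30.0% lie opposite to exons of Tssk6, and the kit does not mark strand, so that reads from the shared bases cannot be told apart.

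In the distal membrane arm, which holds proton-pumping subunits coded by the mitochondria, Ndufb2 (chr6:39592574-39603382, plus strand) was at 27.8, 25.5 and 34.3 CPM in SD Mof+/+ and at 46.6, 72.3 and 117 CPM in SD Mof+/-. It rose by 1.81 ± 0.38 (edgeR adjusted p of 0.0394). Ndufb4 was at 20.3, 29.0 and 30.7 CPM against 41.9, 73.7 and 95.6 CPM and rose by 1.78 ± 0.37 (edgeR adjusted p of 0.0393). Both had low counts and full separation between the genotypes. Ndufb3, Ndufb6, Ndufb9, Ndufb10 and Ndufb11 rose by 1.22 to 1.63, and Ndufab1, the acyl carrier protein that also serves mitochondrial fatty acid synthesis, did not pass the threshold with 1.35. Exons of Ndufb6 (39.0% of bases), Ndufb11 (12.9%) and Ndufb5 (12.3%) overlap a gene on the opposite strand, and 19.5% of those of Ndufb9 overlap a gene on its own strand. Ndufa4, once counted to complex I and now to cytochrome c oxidase, was at 235, 325 and 301 CPM against 374, 524 and 746 CPM, without overlap (1.31 ± 0.33, edgeR adjusted p of 0.053).

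**Figure D2:**
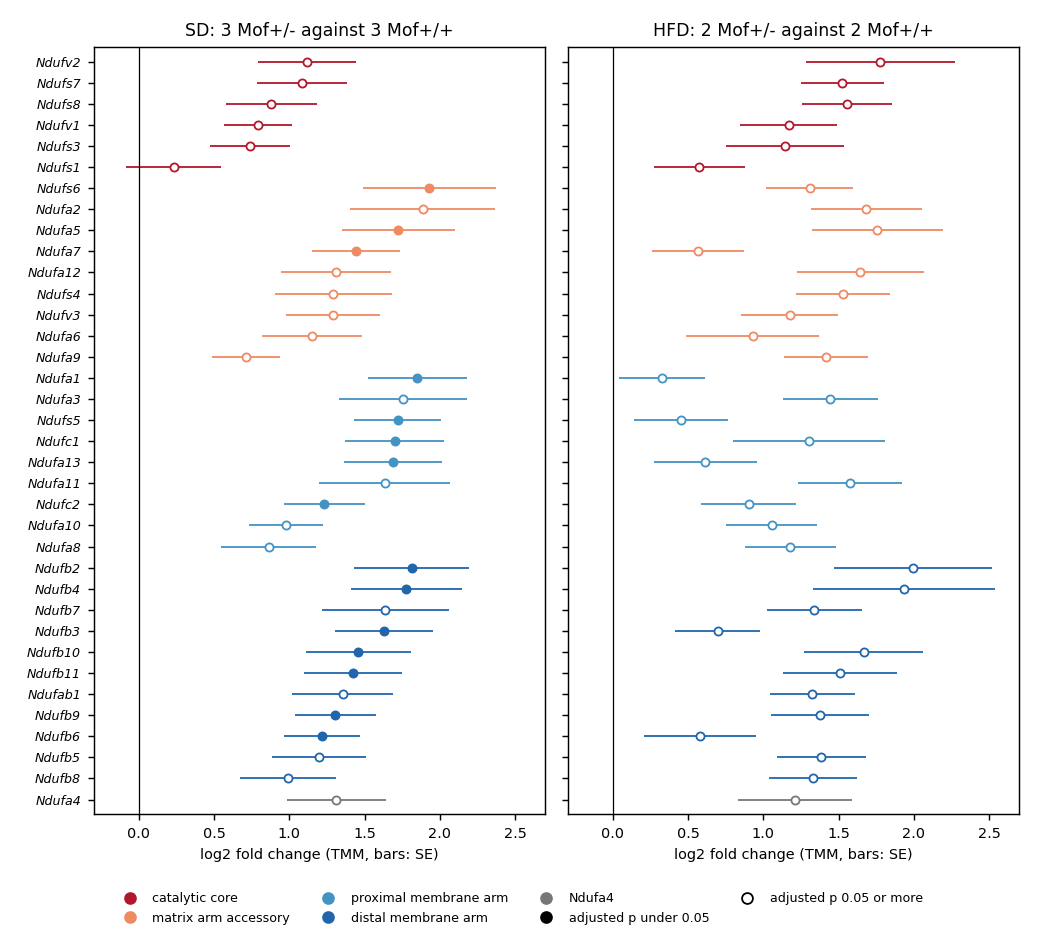
log2 fold changes of 36 of the 37 members between Mof+/- and Mof+/+ libraries on SD (3 against 3, left) and on HFD (2 against 2, right), as fitted by edgeR with TMM, with bars for the SE. Filled points have an adjusted p under 0.05 and colours are the roles. All points are above 0 on both diets, 15 are filled on SD and 0 on HFD, and on SD the core has the lowest median of the roles (0.79).

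Markers of other cell types also differed between the genotypes on SD. The 5 endothelial markers, each above 10 CPM in all SD libraries, summed to 868 to 2081 CPM in Mof+/+ and to 140 to 241 CPM in Mof+/-. The 9 white adipocyte markers summed to 28868 to 35495 CPM against 45432 to 68230 CPM. Fabp4 (8001 to 9721 against 15710 to 34340 CPM), Adipoq, Retn and Cidec were higher without overlap. Plin1, Lipe, Lep, Cfd and Pparg overlapped, with Pparg at 150 to 267 against 145 to 269 CPM. The 6 macrophage markers overlapped, at 834 to 1519 CPM against 884 to 1368 CPM. Their part in the result was not tested. The count of 15 depended on single libraries. It was 0 when any of the SD Mof+/+ libraries or the second SD Mof+/- library was left out, when 0.115% to 0.512% of all genes passed, and 32 to 35 members then had an unadjusted p under 0.05, as had 2665 of 14662 to 2961 of 14440 genes in either direction. It was 25 without the first (6.89% of all genes) and 18 without the third SD Mof+/- library (4.51%), and all 37 log2 fold changes were above 0 in each of these fits, with medians from 0.96 to 1.52. DESeq2 called 32 members, against 15.9% of all genes. When the third SD libraries were grouped by their column headings, 0 members and 0% of all genes were called by edgeR, 4 members and 49.3% of all genes were higher in the group then headed heterozygous, and the median of the members was -0.22.

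On HFD, the same comparison was made in older mice after weeks of fat feeding. Again all 37 members had a higher fitted level in Mof+/- (40.6% of all 14120 genes tested did), with a median log2 fold change of 1.33 against -0.24 over all genes. None passed the adjusted threshold by edgeR or by DESeq2, while 0% of all genes did by edgeR and 1.48% by DESeq2. The smallest edgeR adjusted p among the members was 0.278. At an unadjusted p under 0.05, 28 members were higher by edgeR, against 3.34% of all genes, and 24 by DESeq2, by which 1413 of the 14120 genes passed in either direction. In CPM 30 members did not overlap between the genotypes, with all Mof+/- libraries higher, as in 8.82% of all genes, and after TMM scaling 36 did not, against 12.9%.

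In the first HFD Mof+/- library, besides the muscle markers at 7.62% of counts, 26.9% of counts were on mitochondrially coded genes, against 1.79% to 8.82% in all other libraries. The 6 brown adipocyte markers summed to 1137 and 348 CPM in the HFD Mof+/- libraries and to 8.94 to 74.3 CPM elsewhere. Of them 4 and 3 reached 10 CPM, with Elovl3 and Dio2 at 0 in the first library. Cox8b was the largest of the 6, at 650 and 244 CPM, and Cox7a1 was at 370 and 38.1 CPM. Ucp1 was at 81.4 and 3.62 CPM and Cidea at 35.4 and 60.4 CPM. The part of muscle RNA in these sums was not tested. Without the first HFD Mof+/- library, the single remaining one still had all 37 members higher (median log2 fold change 1.18). Without the second HFD Mof+/- library instead, all 37 members were higher too, and the median was 1.28 while the median of all genes was -1.48. In these fits the lone library is assumed to vary like the others. Without the first HFD Mof+/+ library 0 members passed (0.653% of all genes), and 2 had an unadjusted p under 0.05, as had 300 of 14082 genes. Without the second 0 members passed (0.718% of all genes), and 3 had an unadjusted p under 0.05, as had 245 of 14197 genes. With muscle markers and mitochondrially coded genes taken out of the totals, the members summed to 14623 and 10231 CPM in the first and second HFD Mof+/- libraries. In HFD Mof+/+ they summed to 5085 and 5687 CPM. The members' own counts were not changed by this, so each sum could only rise, and most where most counts were taken out. This step takes away no member counts that came from muscle. In the second HFD Mof+/- library muscle markers were 0.185% of counts, and 15 of 16 reached 10 CPM. Its sum was above both wild-type libraries with and without this step, and the part of muscle RNA in it was not tested. Macrophage markers summed to 3957 and 5033 CPM in HFD Mof+/+ and to 1103 and 1952 CPM in HFD Mof+/-, and endothelial markers to 426 and 337 CPM against 232 and 290 CPM, both without overlap. The part of RNA of these other cell types in the other values was not tested.

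Of the 7 core subunits, 6 were higher without overlap in CPM on HFD, as were 8.82% of all genes. The flavin-side subunit Ndufv2 was at 140.3 and 163 CPM in HFD Mof+/+ and at 524 and 279 CPM in HFD Mof+/-, the largest log2 fold change of the core (1.78 ± 0.49). Ndufs8 was at 78.7 and 98.2 CPM against 194 and 219 CPM (1.55 ± 0.30). Ndufs7 was at 96.9 and 95.3 CPM against 203 and 238 CPM (1.52 ± 0.27). Ndufs7 and Ndufs8, which carry the clusters next to ubiquinone, were close to each other in the heterozygous libraries, whereas Ndufv2 was higher in the first, with muscle markers at 7.62% of counts, than in the second, with 0.185%. Ndufv1 was at 147 and 161 CPM against 209 and 350.3 CPM (1.17 ± 0.32). Ndufs3 was at 105 and 105 CPM against 119 and 261 CPM (1.14 ± 0.39). For both of these the second heterozygous library was the higher. Ndufs1 was at 73.0 and 71.6 CPM against 69.9 and 103 CPM, so that its groups overlapped (0.58 ± 0.30).

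Of the accessory subunits, Ndufb2 had the largest log2 fold change on HFD, at 41.4 and 63.8 CPM in Mof+/+ and at 212 and 113 CPM in Mof+/- (1.99 ± 0.53). Ndufb4 was at 50.5 and 48.6 CPM against 209 and 81.3 CPM (1.93 ± 0.60). In both subunits of the distal arm the first heterozygous library, with the larger share of muscle markers, was the higher. Ndufa2 was at 181 and 248 CPM against 554 and 535 CPM (1.68 ± 0.37). Ndufs6 was at 109 and 129 CPM against 221 and 248 CPM (1.31 ± 0.29). Ndufa9 was at 124 and 124 CPM against 247 and 278 CPM (1.42 ± 0.28). These subunits of the matrix arm were alike in both heterozygous libraries and above both wild-type libraries. Ndufa4 was at 316 and 325 CPM against 431 and 774 CPM (1.21 ± 0.38). Medians by role were 1.17 in the core, 1.42 in the matrix arm, 1.06 in the proximal and 1.38 in the distal membrane arm.

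The smallest differences on HFD were in Ndufa1, Ndufs5 and Ndufa7, all of which rose on SD. Ndufa1 was at 104 and 126 CPM in HFD Mof+/+ and at 104 and 126 CPM in HFD Mof+/- (0.33 ± 0.29). Ndufs5 was at 78.2 and 105 CPM against 91.9 and 108 CPM (0.45 ± 0.31). Ndufa7 was at 189 and 227 CPM against 201 and 294 CPM (0.57 ± 0.31). Their groups overlapped. A fit of all 10 libraries tested the difference of the genotype effects between the diets directly. Sex, which went with genotype on SD only, enters this difference and cannot be told apart from it. By edgeR and by DESeq2 0 members passed the adjusted threshold for this interaction, while 0.0881% of all 15897 genes did by edgeR and 3.08% by DESeq2. At an unadjusted p under 0.05, 3 members had a smaller effect on HFD, against 8.41% of all genes. They were Ndufa1 (-1.62 ± 0.50, edgeR adjusted p of 0.251), Ndufs5 (-1.37 ± 0.47, edgeR adjusted p of 0.294) and Ndufa13 (-1.17 ± 0.52, edgeR adjusted p of 0.388). All 7 core subunits had an interaction above 0 (median 0.34), with edgeR adjusted p-values of 0.656 or more. The median over the members was -0.02 and that over all genes -0.41, and without the first HFD Mof+/- library that of the members was -0.27. With the corrections for the length of exons and of the main transcript, 0 members had a smaller effect on HFD at an unadjusted p under 0.05 (edgeR). An effect larger on HFD was then seen in 2 and 3 members, and 2038 and 2007 of the 15897 genes passed in either direction.

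**Figure D3:**
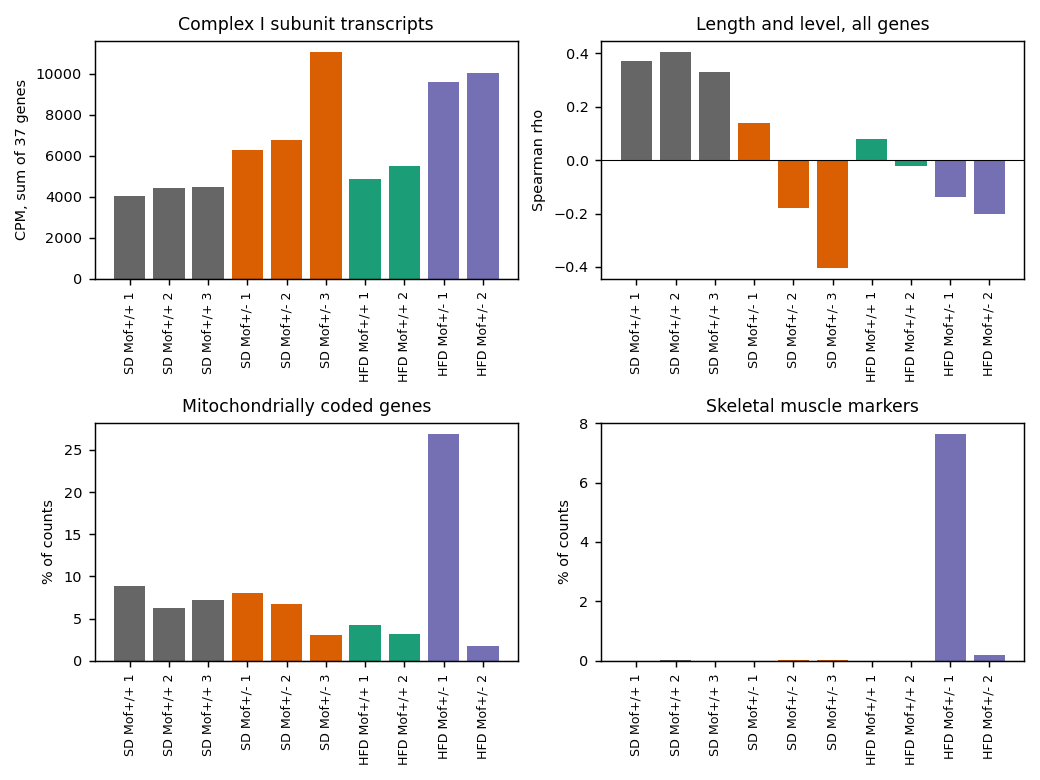
Bars give, for each library, the CPM summed over the 37 members. Further bars give the percent of counts on mitochondrially coded genes and on 16 skeletal muscle markers. Spearman's rho over all genes is between main transcript length and level, with each gene's level taken relative to its mean over all libraries. Colours are the groups. The sum is highest in the third SD Mof+/- library (11057 CPM), rho spans 0.41 to -0.40 over the libraries, and the first HFD Mof+/- library alone has 26.9% mitochondrial and 7.62% muscle counts.

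Most complex I subunits have short transcripts, and the libraries differed in how strongly level went with length. The main transcripts of the members had a median length of 861 bases (419 to 2590, with 23 of 37 under 1000 bases), against 2727 bases over all genes tested on SD. Over all genes, Spearman's rho between main transcript length and level was 0.33 to 0.41 in the SD Mof+/+ libraries, 0.14, -0.18 and -0.40 in SD Mof+/-, 0.08 and -0.02 in HFD Mof+/+, and -0.14 and -0.20 in HFD Mof+/-. All SD Mof+/+ libraries were thus above all others, and the library with the highest sum of members, the third SD Mof+/- library, had the lowest rho. These correlations are across genes, which are not independent replicates.

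Short genes as a whole were higher in Mof+/- on SD. Over the 1465 genes with a main transcript under 1000 bases the median log2 fold change was 1.10, and over the 12374 longer genes it was -0.16. Spearman's rho between the log2 fold change and length was -0.46 over all genes and -0.61 over the 37 members. Against the median of all genes in the same length bin, 34 members were higher and 3 lower, with a median gap of 0.52. On HFD the dependence on length was weaker. The medians for short and longer genes were 0.21 and -0.28, rho was -0.17 over all genes and 0.04 over the members, and all 37 members were above the median of their length bin, with a median gap of 1.27.

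**Figure D4:**
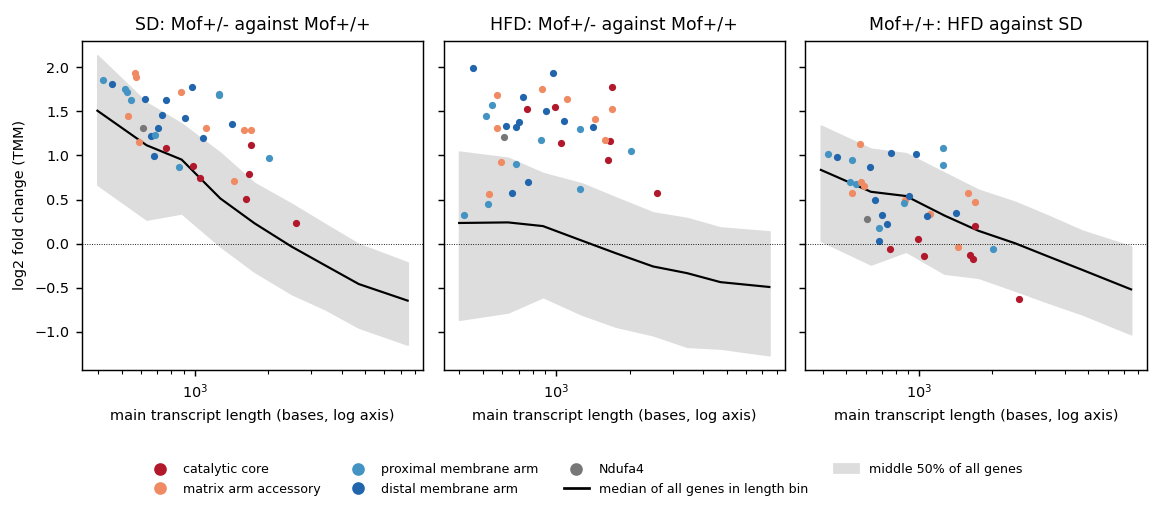
log2 fold change against main transcript length in bases on a log axis, for the genotypes on SD, the genotypes on HFD and the diets in Mof+/+. Points are the 37 members by role, the line is the median of all genes in 9 length bins and the grey band their middle 50%. On SD the members follow the falling line and lie mostly above it (34 of 37), on HFD all 37 lie above it, and between the diets in Mof+/+ they lie on both sides (19 above, 18 below).

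Fits with a smooth correction for length on the offsets gave smaller medians between the genotypes on both diets and between the diets in Mof+/+. Not every member had a smaller value. Between the diets in Mof+/- the median went from 0.33 to 0.35 by exons and to 0.29 by main transcript. With the length of the main transcript, an alternative added after seeing the data, the median on SD went from 1.31 to 0.43, 33 members stayed above 0, and 1 member, Ndufc1, was called (1.04 ± 0.22, edgeR adjusted p of 0.048), against 2.92% of all genes. With the length of all exons, which is inflated for Ndufb2 and Ndufab1 by long annotated isoforms, the median was 0.56 and these 2 genes were called, against 3.17% of all genes. By main transcript length Ndufs6 had a log2 fold change of 0.67 ± 0.26 (edgeR adjusted p of 0.191). Ndufs5 had 0.58 ± 0.27 and Ndufa1 0.52 ± 0.28. Ndufs1, the longest, went from 0.23 to 0.29. The medians by role were then 0.15 in the core, 0.58 in the matrix arm, 0.52 in the proximal and 0.42 in the distal membrane arm. On HFD the median went from 1.33 to 0.997 by main transcript length, with 35 members above 0 and 0 called, and Ndufb2 (1.47 ± 0.42) and Ndufb4 (1.52 ± 0.54) still had large values, whereas Ndufa1 and Ndufs5 were at -0.15 and -0.0038. The part of RNA quality or library preparation in these differences of length was not tested.

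**Figure D5:**
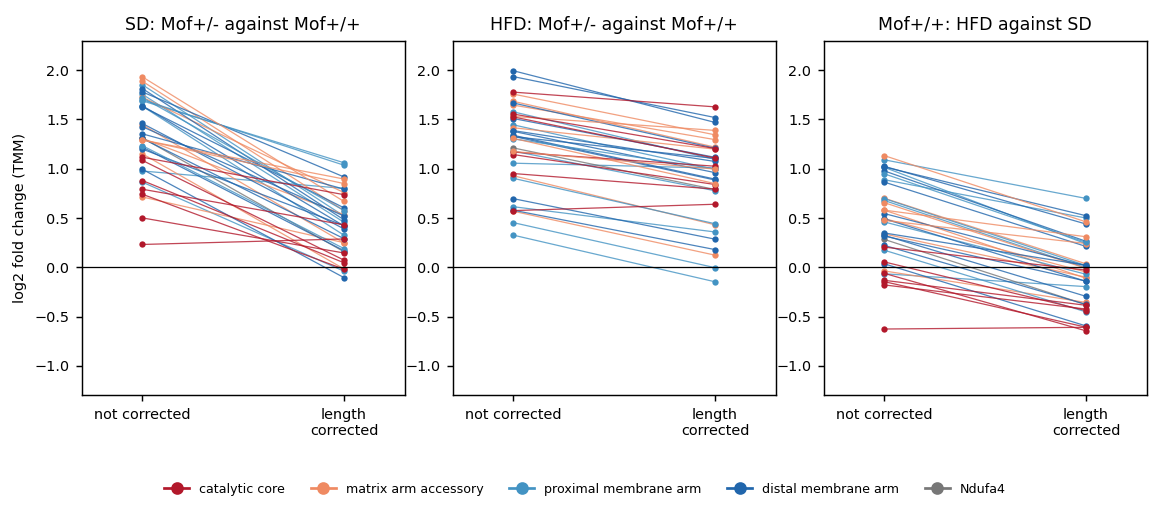
log2 fold change of each of the 37 members without and with the correction for main transcript length, in the same 3 comparisons. Lines join the values of a member and colours are the roles. The median goes from 1.31 to 0.43 on SD, from 1.33 to 0.997 on HFD and from 0.48 to -0.05 between the diets in Mof+/+.

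Between the diets in Mof+/+ mice, which share the wild-type libraries of the comparisons of genotypes, 8 accessory subunits rose. On HFD 30 members were higher and 7 lower than on SD (47.8% of all 14939 genes were higher). Their median log2 fold change was 0.48, and these 8 passed the adjusted threshold, against 6.02% of all genes. They were Ndufs6, Ndufc1, Ndufb3, Ndufb4, Ndufa1, Ndufs5, Ndufa13 and Ndufb7, with log2 fold changes of 0.86 to 1.13. In CPM, 19 members did not overlap and were higher on HFD, against 21% of all genes, and 6 were lower, against 28.2%. After TMM scaling 25 were higher, against 25.2% of all genes, and 4 lower, against 24.1%. Of the 7 core subunits 5 were lower without overlap in CPM, among them Ndufs1, Ndufv1, Ndufs3 and Ndufs7, although Ndufs3 overlapped after TMM scaling. Ndufs1 was at 127, 119 and 119.6 CPM on SD and at 73.0 and 71.6 CPM on HFD (-0.63 ± 0.16, edgeR adjusted p of 0.0568), and it was called lower by DESeq2, and by edgeR with at least 10 counts in every library or without TMM. Ndufb3, chosen here after its values were seen, was at 108, 114 and 113 CPM against 207 and 210.2 CPM (1.02 ± 0.16, edgeR adjusted p of 0.0144). With the correction for main transcript length 0 members were called by edgeR, against 6.81% of all genes, and the median was -0.05. At an unadjusted p under 0.05, 3 members were then higher and 7 lower, and 3618 of the 14939 genes passed in either direction. The count of 8 depended on single libraries, as did the share of all genes called in either direction (9.75% with all libraries). It was 0 without the first SD Mof+/+ library (1.63% of all genes), the first HFD Mof+/+ library (1.49%) or the second (0.384%), 2 without the second SD Mof+/+ library (5.87%) and 10 without the third (14.9%). Endothelial markers summed to 868 to 2081 CPM on SD and to 337 and 426 CPM on HFD in these libraries, and macrophage markers to 834 to 1519 CPM against 3957 and 5033 CPM. White adipocyte markers summed to 28868 to 35495 CPM against 27263 and 23891 CPM, although Lep, Fabp4 and Cidec were higher on HFD. The part of these markers in the result was not tested.

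Between the diets in Mof+/- mice, which share the heterozygous libraries of the comparisons of genotypes, no member passed the adjusted threshold, and 0% of all 13610 genes did by edgeR. By DESeq2 0 members passed too, against 2.95% of all genes. At an unadjusted p under 0.05, 0 members were higher by edgeR, against 3.09% of all genes. On HFD 28 members were higher and 9 lower (39% of all genes were higher), with a median of 0.33 against -0.26 over all genes. White adipocyte markers summed to 45432 to 68230 CPM on SD and to 15116 and 41506 CPM on HFD, brown adipocyte markers to 22.0 to 45.7 CPM against 1137 and 348 CPM, and muscle markers to 28.0 to 101 CPM against 76243 and 1853 CPM. None of these sums overlapped, and their part in the result was not tested. Of the brown adipocyte sums on HFD, Cox8b alone made up 650 and 244 CPM. Xist was counted only in the SD libraries of this genotype, and Y-linked genes only in its HFD libraries. Sex and diet therefore cannot be told apart here. The median was 0.78 without the third SD Mof+/- library and 0.18 without the first HFD Mof+/- library, which leaves the one in which 15 of 16 muscle markers reached 10 CPM. Ndufa1 was at 138, 146 and 234 CPM on SD and at 104 and 126 CPM on HFD, the only member that was lower without overlap (-0.61 ± 0.45, edgeR adjusted p of 0.764).

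Among the other genes of the pathway, most did not pass the threshold. Of the 18 assembly factors listed, 17 were in the files and tested. On SD 1 of them, Ndufaf8, rose (1.74 ± 0.35, edgeR adjusted p of 0.0369), from 17.3 to 20.3 CPM in Mof+/+ to 36.2 to 67.8 CPM in Mof+/-, against 3.33% of all genes called higher. In all, 14 of 17 were higher, against 46.8% of all genes, with a median of 0.56, which was 0.22 and 0.28 with the corrections for the length of exons and of the main transcript. On HFD 0 of 17 passed and the median was 0.26, or 0.16 and 0.15 with these corrections. Of 11 regulators of mitochondrial biogenesis, 0 passed in either comparison of genotypes, with medians of -0.61 over 11 genes on SD and -0.18 over the 10 tested on HFD. With the same corrections the medians were -0.40 and -0.24 on SD, and -0.057 and -0.12 on HFD. Ppargc1a, the coactivator PGC-1α, was at 7.28 to 12.2 CPM in SD Mof+/+ and at 1.57, 2.69 and 0 CPM in SD Mof+/- (-2.40 ± 1.11, edgeR adjusted p of 0.215).

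The 7 complex I subunits coded by mitochondrial DNA overlapped between the genotypes in their sum on SD. Their sum was 24552 to 33743 CPM in Mof+/+ and 14886 to 29092 CPM in Mof+/-, 0 of 7 passed the threshold, and their median log2 fold change was 0.25. This direction turned with the corrections for length, with medians of -0.94 by exons and -0.85 by main transcript. On HFD 6 of 7 were higher in Mof+/-, with a median of 2.52 and 0 past the threshold (edgeR, 0 at an unadjusted p under 0.05). They summed to 17387 and 13254 CPM in Mof+/+ and to 115826 and 7307 CPM in Mof+/-, on both sides of the wild-type libraries. In Mof+/+ all 7 were lower on HFD than on SD, while 47.8% of all genes were higher. The subunit mt-Nd5 passed the threshold (-1.31 ± 0.31, edgeR adjusted p of 0.0436), as did 557 of 14939 genes in the lower direction. Few counts were on mt-Nd3 and on mt-Nd4l, which was at 1.49 and 1.56 CPM on HFD.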

How the data were processed

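RNA was extracted from visceral WAT and sequenced as paired reads from an unstranded kit, and the authors deposited raw counts per gene for each library, made with featureCounts (Subread 1.5.0-p1) after alignment with STAR to GRCm38; their processing notes also list DESeq2 1.26, and the annotation release is not given in the sources used here. Here, gene identifiers were matched to symbols and lengths from GENCODE M21 without version, for 47224 of 47937 genes. The members and the gene lists were chosen with earlier results of these data known.

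Counts were tested with edgeR 4.0.16 (R 4.3.3) by the quasi-likelihood test, with TMM normalization, filterByExpr and Benjamini-Hochberg adjustment over all genes tested, at 0.05. Only the groups compared entered a fit, except for the interaction (all 10 libraries). The scripts were tested on simulated data. CPM used the total counts on genes, and TPM and length corrections (splines with 4 degrees of freedom) used the main transcript or the union of exons. Values in every library are given for the core subunits (1 of the 7 is not reported here by name, and the plots that label members leave it out, but it stays in all counts and medians), Ndufa4, and the 3 largest and 3 smallest log2 fold changes in each comparison of genotypes. Alternatives were DESeq2 1.42.0, other scalings and filters (none, or at least 10 counts in every library), length and GC corrections, each library left out, a replicate block, 1 fit of all libraries, and the grouping by column headings. Same-numbered libraries did not deviate together (r of -0.05 to 0.07), so the numbers were not taken as pairs. Replicates differed by more than sampling noise (chi-square per degree of freedom of 32.9 to 170).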

Additional observations from a re-analysis of the deposited data

Results flagged for a closer look

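Ndufa1 had log2 fold changes of opposite sign between the diets in the 2 genotypes, of which the one in Mof+/+ passed the adjusted threshold. In Mof+/+ it was higher on HFD in every library, by 1.01 ± 0.24 on the log2 scale, and in Mof+/- it was lower on HFD in every library, with a log2 fold change of -0.61 ± 0.45 that did not pass (edgeR adjusted p of 0.764). The levels were 47.6 to 75.7 CPM in SD Mof+/+, 104 and 126 CPM in HFD Mof+/+, 138 to 234 CPM in SD Mof+/- and 104 and 126 CPM in HFD Mof+/-. The interaction had a log2 value of -1.62 ± 0.50 and an adjusted p of 0.251 by edgeR, so that it did not pass the threshold. Ndufa1 has the shortest main transcript of the members (419 bases), and it is coded on the X chromosome, while all SD Mof+/- libraries had Xist counts and no others did. With the correction for main transcript length the log2 fold change between the diets was 0.24 ± 0.31 in Mof+/+ (edgeR adjusted p of 0.706) and -0.58 ± 0.35 in Mof+/-, and the interaction was -0.81 ± 0.46. With that for exon length they were 0.14 ± 0.34 (edgeR adjusted p of 0.843), -0.43 ± 0.36 and -0.59 ± 0.48. The part of sex in these values was not tested.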

How the results depend on the processing

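On SD, where 15 members and 5.24% of all genes were called in either direction, the number of members called was 32 with DESeq2 (15.9% of all genes), 30 without a filter on low counts (8.35%), 26 with at least 10 counts in every library (11.2%), 2 with the exon length correction (3.17%), 1 with the main transcript correction (2.92%), 5 without TMM (5.21%), 7 in 1 fit of all 10 libraries (1.22%), 9 without the third SD libraries (4.08%) and 0 with the grouping by column headings (0%); it was 0 to 25 with single libraries left out (0.115% to 6.89%). The median log2 fold change was 0.56 and 0.43 with the length corrections, 0.93 without TMM (where the median of all genes was -0.43 in place of -0.07), 0.96 without the third SD libraries and -0.22 by column headings, and 0.96 to 1.52 with single libraries left out. By column headings the direction reversed for Ndufa1 (-0.21), Ndufa2 (-0.71), Ndufa4 (-0.18), Ndufa7 (-0.12), Ndufb2 (-0.24), Ndufb4 (-0.059), Ndufs3 (-0.037), Ndufs5 (-0.010), Ndufs6 (-0.49), Ndufs7 (-0.22), Ndufs8 (-0.33) and Ndufv2 (-0.35). Ndufs1 was at -0.11 without TMM, Ndufs3 at -0.020 with the main transcript correction and Ndufs8 at -0.0029 with the exon length correction. On HFD, 0 to 31 members were called with single libraries left out (0.653% to 47.9% of all genes), and the median was 0.997 with the main transcript correction and 0.99 without TMM. Ndufa1 was at -0.0098 and -0.15 with the length corrections and Ndufs5 at -0.0038 with that for the main transcript. Between the diets in Mof+/+, 16 members were called with DESeq2 (20.0% of all genes), 2 and 0 with the exon length and main transcript corrections (7.71% and 6.81%), 5 with the GC correction (9.71%), 3 without TMM (9.57%), 0 in 1 fit of all libraries (0.893%), 0 by column headings (0%) and 0 to 10 with single libraries left out (0.384% to 14.9%); the median was -0.064 and -0.048 with the length corrections and -0.49 by column headings. Between the diets in Mof+/-, the median was 0.98 by column headings, 0.78 without the third SD libraries and 0.18 to 0.78 with single libraries left out. The median interaction was 0.29 and 0.45 with the length corrections, 1.41 by column headings, 0.29 without the third SD libraries and -0.27 to 0.33 with single libraries left out. The causes were not tested.

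With the replicate number as a replicate block, 8 members were called on SD (3.09% of all genes), 1 on HFD (1.42%) and 2 between the diets in Mof+/+ (9.77%), and the median between the diets in Mof+/- was 0.71; the numbers did not pair the libraries. Limits include the dependence on transcript length, the column headings that go against the labels, and the 2 libraries per genotype on HFD. Others are the depth of the first HFD Mof+/- library (1044355 counts), diet with age, genotype with sex on SD, and diet with sex in Mof+/-.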
